A study of Mus musculus with 29 samples.

Results

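The genes described here are 10 heat shock and chaperone genes, Hspa1a, Hspa1b, Hspa8, Hsp90aa1, Hsph1, Dnajb1, Hspb1, Hspb7, Cryab and Bag3. They were taken by symbol from RNA sequencing of tibialis anterior (TA) muscle of the mouse, and all 10 were found among the 48023 genes counted. The rule uses gene symbols. Heat shock proteins bind unfolded or damaged proteins, hold them in solution, and refold them or pass them on for degradation. In stressed cells the heat shock factors, of which HSF1 is the main one, bind paired repeats called heat shock elements and raise the transcription of the inducible genes. In muscle the small heat shock proteins and BAG3 protect the sarcomere, and BAG3 with HSP70 feeds worn filament proteins into autophagy.

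The study asked what the p110α and p110β catalytic subunits of PI3-kinase do in skeletal muscle, in fed and in fasted mice. The mice were C57BL/6J males of 2 to 3 months by the labels. Knockouts carried Cre recombinase under the human alpha-skeletal actin promoter, which is active in muscle fibres, and floxed alleles with loxP sites around exon 1 of p110α (M-p110αKO) or exon 2 of p110β (M-p110βKO). Controls, labelled WT, were floxed mice of the same line without Cre, so that every mouse of a line carried floxed alleles. Each line held fed and fasted mice of both genotypes, and the fast lasted a full day. The p110α line gave 4 controls and 4 M-p110αKO when fed, and 4 controls and 3 M-p110αKO when fasted. The p110β line gave 3 controls and 4 M-p110βKO in each feeding state. Mice are numbered 1 to 29 as in the labels, and each gave 1 library. By the supplement the p110β line was less purely C57BL/6, so that the floxed gene and the background cannot be told apart in comparisons between lines. Replicates are libraries that the labels number separately, and p values measure only the spread between them. In bulk tissue, fewer cells of a type and less RNA per cell cannot be told apart.

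Assigned reads ranged from 5351935 to 11653239 per library, with a median of 7828636, and mitochondrial genes took 6.99% to 12.3% of them. The 39 pairs of mice within groups differed by 3.64 to 28 times the sampling variance of their counts, so that none was a copy of its group mates. Of the 29 libraries 26 correlated best with one of their own group. Mice 4, 16 and 25, all controls, correlated best with a knockout of the same line and feeding state. Levels are CPM, read counts relative to the assigned reads of the library, scaled with TMM factors over all 29 libraries. The 10 markers of fast fibres, which dominate the TA, summed to 118022 CPM or more in every library, and none was at 0 in a whole group. Mice 23 and 24, 2 of the 3 fasted controls of the p110β line, stood apart in adipocyte markers. Adipoq, Lep, Plin1, Cfd, Cidec and Retn, 6 of the 8 on the list, summed to 150.0 and 145.9 CPM in them, against 2.58 CPM in mouse 25 and 0.123 to 19.8 CPM in the libraries of all other groups. The other two went separate ways, Fabp4 being at 237 and 278 CPM and Car3, also abundant in muscle, at 343 and 309 CPM, the lowest of the study. Markers of slow fibres reached 342 CPM in mouse 25, a fasted control of the p110β line, against 95.7 to 213 CPM in all other libraries. The count of Pik3ca, the floxed gene of the p110α line, was 101 to 144 CPM in fed controls and 105 to 161 CPM in fed M-p110αKO before TMM scaling. That of Pik3cb was 10.1 to 11 CPM in fed controls of the p110β line and 9.86 to 11.3 CPM in fed M-p110βKO. In fasted mice Pik3ca was at 163 to 191 CPM in controls and 162 to 192 CPM in M-p110αKO. Pik3cb was at 8.64 to 10.3 CPM in fasted controls of the p110β line and 8.84 to 10.3 CPM in fasted M-p110βKO. The paper reports less mRNA of the deleted gene in hindlimb muscle of each knockout, a fall that these counts did not show. A count over the whole gene need not show the loss of 1 exon. The reason for the difference was not tested, and the genotypes are given as labelled.

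The promoters of the members show how the 10 genes differ in the element that HSF1 binds. RefSeq promoters on build GRCm38.p6, from 250 bases before to 50 bases after the start of transcription, were at hand for 7 of the 10 members, all but Hspa8, Hsp90aa1 and Cryab. The 2-unit heat shock element was searched as GAANNTTC or TTCNNGAA, where N is any base, and each form reads the same on both strands. A 3-unit form, which adds another GAA or TTC at the same spacing, always holds 2 overlapping 2-unit forms. The 5 promoters below are those of Hspa1a, the stress-inducible HSP70, of Hsph1, Hspb1 and Bag3, which hold matches elsewhere in the window, and of Hspb7, which holds none and had the largest change with fasting. Capitals mark the matches.
Hspa1a, chr17:34972107-34972406, minus strand: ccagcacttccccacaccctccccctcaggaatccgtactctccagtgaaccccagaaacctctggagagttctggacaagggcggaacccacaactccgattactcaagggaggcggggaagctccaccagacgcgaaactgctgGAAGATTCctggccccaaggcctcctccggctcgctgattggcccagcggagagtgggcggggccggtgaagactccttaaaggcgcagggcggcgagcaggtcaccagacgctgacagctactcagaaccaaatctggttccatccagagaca
Hsph1, chr5:149636287-149636586, minus strand: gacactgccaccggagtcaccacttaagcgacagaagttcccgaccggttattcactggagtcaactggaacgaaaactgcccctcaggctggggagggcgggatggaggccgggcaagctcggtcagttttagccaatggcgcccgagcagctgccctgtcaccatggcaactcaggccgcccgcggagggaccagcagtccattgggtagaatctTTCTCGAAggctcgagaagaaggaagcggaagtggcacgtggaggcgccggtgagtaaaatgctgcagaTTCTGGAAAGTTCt
Hspb1, chr5:135887669-135887968, plus strand: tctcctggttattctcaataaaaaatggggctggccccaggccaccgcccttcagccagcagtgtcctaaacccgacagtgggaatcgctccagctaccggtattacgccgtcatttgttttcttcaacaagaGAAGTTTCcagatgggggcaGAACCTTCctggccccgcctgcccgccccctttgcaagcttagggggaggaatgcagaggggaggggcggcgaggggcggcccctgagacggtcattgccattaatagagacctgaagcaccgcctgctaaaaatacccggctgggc
Bag3, chr7:128523333-128523632, plus strand: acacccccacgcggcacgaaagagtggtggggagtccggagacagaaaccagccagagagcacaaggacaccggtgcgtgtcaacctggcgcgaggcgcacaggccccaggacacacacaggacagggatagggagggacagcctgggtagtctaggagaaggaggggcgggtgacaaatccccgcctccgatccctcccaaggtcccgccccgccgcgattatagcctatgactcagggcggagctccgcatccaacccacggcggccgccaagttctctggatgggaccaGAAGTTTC
Hspb7, chr4:141420529-141420828, plus strand: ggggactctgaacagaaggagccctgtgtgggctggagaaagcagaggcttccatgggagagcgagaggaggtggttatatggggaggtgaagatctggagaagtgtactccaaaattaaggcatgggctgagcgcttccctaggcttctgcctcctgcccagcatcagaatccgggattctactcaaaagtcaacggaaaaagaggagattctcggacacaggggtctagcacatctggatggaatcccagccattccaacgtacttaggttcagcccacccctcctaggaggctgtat

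A 2-unit match was present in 5 of the 7 members with a promoter (71.4%), against 17% of the promoters of 27025 genes and 21% of those of 100 other chaperone genes. Counting the start as base 1, the match of Hspa1a began at base -104, and that of Hspa1b at the same place, since the promoters of this gene pair are identical at 296 of 300 positions. Hspb1 held matches at -117 and -97, and Bag3 held its match at 43, inside the transcript. Hsph1, the HSP110 that exchanges nucleotide on HSP70, held the only 3-unit match of the members, at 37 from the start shown and at 16 from its other start, with a further 2-unit match at -33 or -54. The 3-unit form was present in 0.662% of all genes. Neither start of Dnajb1 nor the start of Hspb7 had a match in these windows. The matches are letters in a window and not measured binding.

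**Figure D1:**
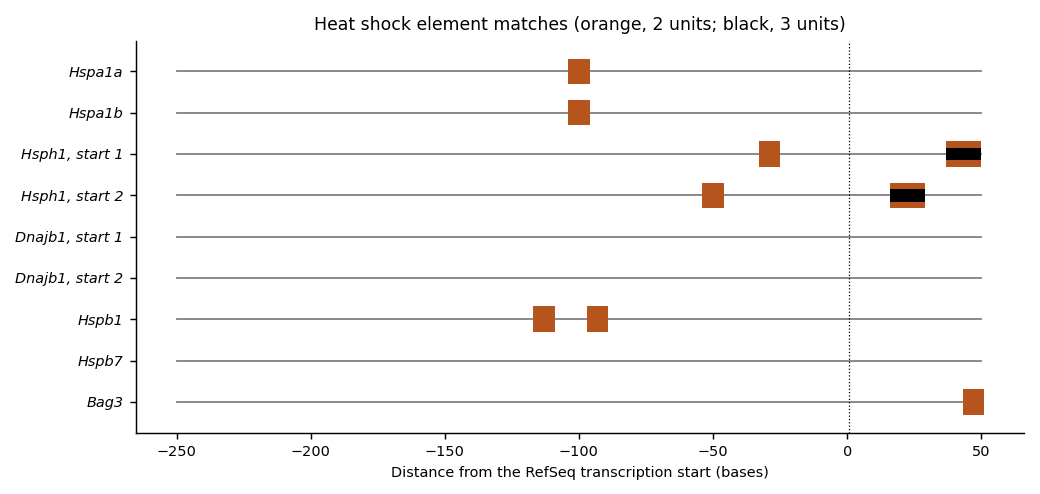
Matches to the heat shock element in RefSeq promoters of 7 members, with distance from the transcription start in bases on the horizontal axis and 1 line per start. Orange blocks mark 2-unit and black blocks 3-unit matches. Hspa1a, Hspa1b and Hspb1 have theirs near 100 bases upstream, Bag3 and Hsph1 have matches after the start, and Dnajb1 and Hspb7 have none.

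In GRCm38 coordinates of the whole gene, Hspa1a lies on chromosome 17 from 34969190 to 34972156 on the minus strand and Hspa1b beside it on chromosome 17 from 34956436 to 34959238 on the minus strand. Dnajb1 lies on chromosome 8 from 83608193 to 83612653 on the plus strand, Hspb7 on chromosome 4 from 141420779 to 141425311 on the plus strand and Bag3 on chromosome 7 from 128523616 to 128546981 on the plus strand. Counts cover all exons of each gene, untranslated regions included.

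All 10 members passed the filter on low counts in both lines, so each was tested in every comparison. Per kilobase of exon the median level over the 29 libraries was highest for Cryab, at 224 CPM per kb. Hspa8, the constitutive HSP70 of every cell, followed at 139 CPM per kb and Hspb7 at 103 CPM per kb. Bag3 stood at 40.8 CPM per kb, Hspb1 at 39.9, Hsph1 at 21.5 and Hsp90aa1, the inducible cytosolic HSP90, at 19.3. Dnajb1, the J-domain partner that starts the HSP70 cycle, was at 3.17 CPM per kb, and the stress-inducible pair Hspa1a and Hspa1b at 0.765 and 0.508 CPM per kb. Hspa1a had as few as 4 reads in a library and Hspa1b as few as 3, and intervals for this pair are wide.

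Some members share sequence with other genes, and how the counting treated such reads is not given in the sources used here. Of all windows of 50 bases in annotated transcripts, 66.3% of those of Hspa1a and 62.3% of those of Hspa1b occur in another gene, mostly the partner. For Hspa8 it was 39.4%, for Hsp90aa1 47.5% and for Hspb1 50.1%, mostly in processed copies. The levels and changes of these 5 genes are uncertain to that extent. Cryab overlaps Hspb2 on the opposite strand over 13.3% of its windows, where reads of the 2 genes cannot be told apart without strand. Hsph1 and Bag3 shared no window, and Dnajb1 and Hspb7 shared 0.412% and 0.703%.

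**Figure D2:**
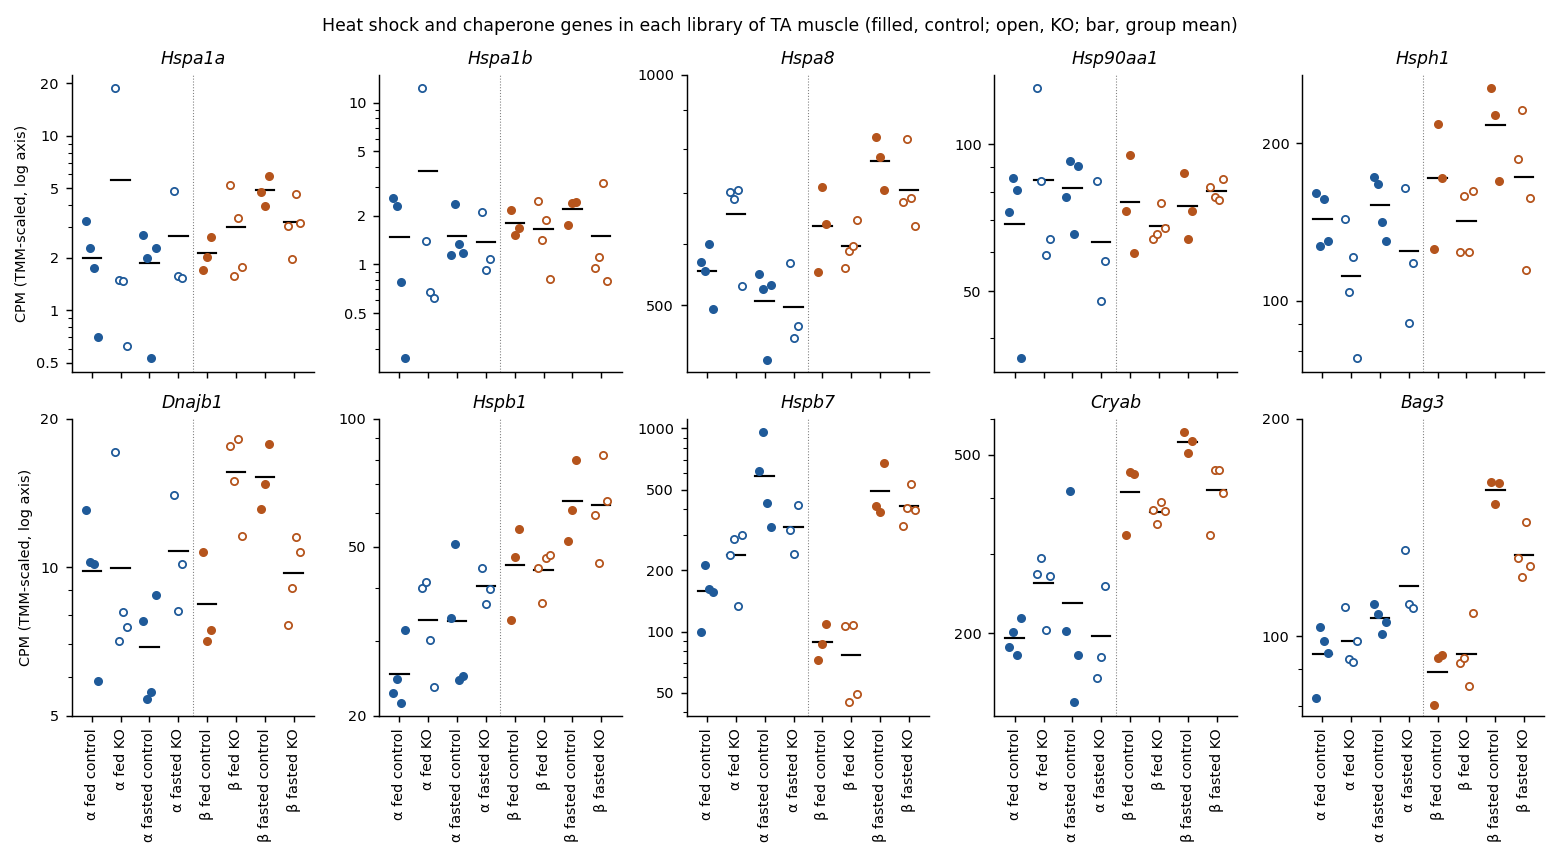
Level of each member in CPM (TMM-scaled, log axis) in all 29 libraries, with the p110α line in blue and the p110β line in orange, controls filled, knockouts open and group means as bars. Hspb7 is higher in fasted than in fed mice without overlap, except in M-p110αKO, Bag3 is highest in fasted controls of the p110β line at 152 to 164 CPM, and mouse 5 stands alone for Hspa1a at 18.7 CPM.

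Fasting was the condition with the most calls, among the members as among all genes. Hspb7 was called in 3 of 4 fasting comparisons and Bag3 and Dnajb1 in 2 each. Tests are edgeR quasi-likelihood tests within a line with Benjamini-Hochberg adjustment over all genes tested, 12433 in the p110α line and 12249 in the p110β line, and a member was called at an adjusted p under 0.05. In controls of the p110α line 1 of 10 members rose, Hspb7, where 15.4% of all genes rose, and 0 fell, where 14.7% of all genes fell. At an unadjusted p under 0.05, edgeR also had 0 members lower. In M-p110αKO 0 of 10 members rose in edgeR, where 11.6% of all genes rose, with 1 at an unadjusted p under 0.05, and Hspa8 fell, where 9.91% of all genes fell. In controls of the p110β line 4 of 10 rose, Hspa1a, Dnajb1, Hspb7 and Bag3, where 14.5% of all genes rose, and 0 fell, where 12.4% of all genes fell and 0 members were lower at an unadjusted p under 0.05. In M-p110βKO 3 of 10 rose, Hspb1, Hspb7 and Bag3, where 19% of all genes rose, and Dnajb1 fell, where 18.9% of all genes fell. DESeq2 called 1, 1, 5 and 5 members in these 4 comparisons and limma-voom 1, 1, 5 and 4. Shares of all genes are from edgeR throughout, and those of DESeq2 and limma-voom were not counted. The median log2 fold change of the 10 members was 0.12, -0.13, 0.45 and 0.24, against medians over all genes between -0.02 and 0.00.

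Hspb7, also called cvHSP, is a small heat shock protein of heart and skeletal muscle that keeps filamin and other cytoskeletal proteins from aggregating. In the p110α line it was at 99.4, 213, 162 and 157 CPM in fed controls and at 615, 959, 431 and 326 CPM in fasted controls. All 4 fasted controls lay above all 4 fed controls, as in 29.9% of all genes tested there, and mouse 10, at 959 CPM, was the highest library of the study. The log2 fold change was 1.88 ± 0.31 (SE; 3.68-fold, adjusted p = 0.000242), and 1.53 without mouse 10 (adjusted p = 0.000874). M-p110αKO had 239, 286, 134 and 299 CPM when fed and 317, 241 and 418 CPM when fasted. The ranges overlapped, and the log2 fold change with fasting was 0.45 ± 0.32 (adjusted p = 0.345). In the p110β line Hspb7 was at 72.1, 86.9 and 108 CPM in fed controls, and at 415, 389 and 674 CPM in fasted controls. Fed M-p110βKO had 106, 44.9, 107 and 49.4 CPM, and fasted M-p110βKO 330, 403, 532 and 398 CPM. Fasted and fed mice did not overlap in either genotype, as in 40.6% of all genes in controls and 33.2% in M-p110βKO. The log2 fold change was 2.48 ± 0.31 in controls (5.57-fold, adjusted p = 1.19e-05) and 2.43 ± 0.27 in M-p110βKO (5.4-fold, adjusted p = 1.82e-06). Of the 10 members this gene had the widest range of group means, from 76.9 CPM in fed M-p110βKO to 583 CPM in fasted controls of the p110α line. The ranges of all 7 pairs of neighbours in that order overlapped.

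Bag3 encodes the cochaperone that joins HSP70 and small heat shock proteins and starts chaperone-assisted autophagy. Fed controls of the p110β line had 80.4, 93.3 and 94.2 CPM and fasted controls 164, 152 and 163 CPM. When fed, M-p110βKO had 91.7, 93.3, 85.3 and 107 CPM, and when fasted 128, 121, 144 and 125 CPM. Every fasted mouse of this line lay above every fed mouse. Within a genotype, fed and fasted mice were apart in 40.6% of all genes in controls and 33.2% in M-p110βKO. The log2 fold change was 0.85 ± 0.11 in controls (1.80-fold, adjusted p = 2.27e-05) and 0.45 ± 0.10 in M-p110βKO (1.37-fold, adjusted p = 0.00124). In the p110α line fed controls had 82.0, 103, 98.6 and 94.9 CPM and fasted controls 111, 107, 101 and 105 CPM. Fed M-p110αKO had 110, 93.1, 92.1 and 98.4 CPM and fasted M-p110αKO 132, 111 and 109 CPM. Here the ranges of fed and fasted mice overlapped, with log2 fold changes of 0.16 ± 0.10 in controls (adjusted p = 0.228, and 0.36 with adjusted p = 0.0161 after a correction for GC and length) and 0.26 ± 0.10 in M-p110αKO (adjusted p = 0.082). The fasting change of controls was larger in the p110β line than in the p110α line by 0.67 ± 0.14 on the log2 scale (adjusted p = 0.015), the only member past the threshold in that test, where 1.56% of all genes passed. DESeq2 called 2 members there and limma-voom 1. That call was lost without mouse 16 (adjusted p = 0.0534), with the GC and length correction (0.0728), and without mice 23 and 24 (0.0663), the pair with adipocyte transcripts.

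Dnajb1, the HSP40 that hands substrates to HSP70, moved in opposite directions with fasting in the genotypes of the p110β line. Its levels were 10.7, 7.09 and 7.44 CPM in fed controls and 13.1, 14.7 and 17.8 CPM in fasted controls. In M-p110βKO they were 17.6, 15.0, 18.2 and 11.6 CPM when fed and 7.63, 9.09, 11.5 and 10.7 CPM when fasted. Fed and fasted mice did not overlap in either genotype, as in 40.6% of all genes in controls and 33.2% in M-p110βKO. In M-p110βKO the gap was narrow, from 11.485 CPM in fasted mouse 28 to 11.562 CPM in fed mouse 22. The gene rose by 0.85 ± 0.21 on the log2 scale in controls (1.80-fold, adjusted p = 0.00579), and in M-p110βKO its log2 fold change was -0.68 ± 0.18 (adjusted p = 0.00663). Counts per library were between 42 and 136 over the study. In the p110α line levels were 13.1, 10.3, 10.1 and 5.88 CPM in fed controls, 7.76, 5.41, 5.58 and 8.78 CPM in fasted controls, 17.1, 7.09, 8.10 and 7.57 CPM in fed M-p110αKO and 14.0, 8.16 and 10.2 CPM in fasted M-p110αKO. These ranges overlapped, with log2 fold changes of -0.50 ± 0.29 in controls and 0.14 ± 0.31 in M-p110αKO (adjusted p = 0.209 and 0.79).

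Among the HSP70 genes, changes with fasting were small or rested on few reads. Hspa8 is the constitutive HSP70 that also uncoats clathrin and serves chaperone-mediated autophagy. It was at 702, 688, 707 and 529 CPM in fed M-p110αKO and at 567, 453 and 470 CPM in fasted M-p110αKO, with overlap through mouse 8 at 529 CPM and mouse 13 at 567 CPM. The log2 fold change was -0.40 ± 0.13 (adjusted p = 0.0334). The call was lost in a fit of these groups alone (adjusted p = 0.0674) and without mouse 5, 6, 7, 14 or 15 (0.0731, 0.0704, 0.0749, 0.117 and 0.0924). In controls of that line the values were 569, 554, 600 and 494 CPM when fed and 549, 525, 423 and 531 CPM when fasted (log2 fold change -0.13 ± 0.12, adjusted p = 0.416). In the p110β line Hspa8 was at 553 to 714 CPM in fed and 707 to 829 CPM in fasted controls (0.29 ± 0.12, adjusted p = 0.0879). Hspa1a was at 1.69, 2.03 and 2.64 CPM in fed and 4.75, 3.94 and 5.89 CPM in fasted controls of the p110β line. All fasted controls lay above all fed controls there, as 40.6% of all genes were apart. The log2 fold change was 1.19 ± 0.39 (2.28-fold, adjusted p = 0.0296). That call was lost in a fit of all 29 libraries (adjusted p = 0.295), without mice 23 and 24 (0.0621), and without mouse 16, 17, 23 or 25 (0.109, 0.0726, 0.0589 and 0.0911). Hspa1b, its near copy, had 1.52 to 2.17 CPM in fed and 1.75 to 2.44 CPM in fasted controls of that line, with a log2 fold change of 0.29 ± 0.44 (adjusted p = 0.67).

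Hspb1 (HSP25) and Cryab (αB-crystallin) are small heat shock proteins that bind desmin and actin filaments. Hspb1 was at 44.6, 36.8, 47.0 and 47.9 CPM in fed and 59.3, 45.7, 82.1 and 64.0 CPM in fasted M-p110βKO. Mouse 27, at 45.7 CPM, lay within the fed range and the other fasted mice above it. Its log2 fold change was 0.51 ± 0.18 (1.42-fold, adjusted p = 0.0298). The call was lost in a fit of all libraries (0.0583), with upper-quartile factors (0.0526) and without mouse 19, 20, 28 or 29 (0.0561, 0.086, 0.103 and 0.0506). With the GC and length correction it was 0.87 (adjusted p = 0.00044). Controls of the line had a change of the same size, 0.51 ± 0.20, with adjusted p = 0.0691. That change passed with the GC and length correction (0.77, adjusted p = 0.00472), without mice 23 and 24 (0.84, 0.0333), with no filter on low counts (0.00306) and in 4 of 14 fits without 1 mouse. Cryab was at 331, 457 and 453 CPM in fed and 561, 503 and 536 CPM in fasted controls of the p110β line, with no overlap, as in 40.6% of all genes, and its log2 fold change of 0.38 ± 0.14 stood at the threshold (adjusted p = 0.0501). It passed in 7 of 11 other settings, DESeq2 (0.0276), limma-voom (0.0403) and the GC and length correction (0.0121) among them, and in 4 of 14 fits without 1 mouse, but not without mice 23 and 24 (0.202). In the p110α line both genes overlapped between fed and fasted mice. Hspb1 there had log2 fold changes of 0.40 ± 0.22 in controls (adjusted p = 0.175) and 0.27 ± 0.23 in M-p110αKO (adjusted p = 0.443), and Cryab 0.26 ± 0.24 (0.461) and -0.39 ± 0.27 (0.313). After the GC and length correction the Hspb1 change in controls of that line passed (0.85, adjusted p = 0.00617).

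Hsp90aa1 and Hsph1 passed in none of the 4 fasting comparisons. Hsp90aa1 ranged from 36.4 to 130 CPM over all libraries and its group means from 63.1 to 84.4 CPM. Fasted M-p110βKO, at 76.7 to 85.0 CPM, lay above fed M-p110βKO, at 64.0 to 75.9 CPM, as in 33.2% of all genes, with a log2 fold change of 0.24 ± 0.13 (adjusted p = 0.15). Hsph1 ranged from 77.6 to 255 CPM and its group means from 111 to 217 CPM. Its log2 fold changes with fasting were between 0.08 and 0.35.

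Markers of other cells and states moved with fasting in both lines, but not in a common direction. In controls of the p110α line 3 of 6 tested macrophage markers were higher, and their sum was 17.8 to 26.5 CPM when fed and 39.6 to 76.6 CPM when fasted, highest in mouse 10. Of the 10 fast fibre markers 6 were lower there, of 9 slow fibre markers 3 were lower and 1 higher, and of 8 fibroblast markers 3 were higher. In controls of the p110β line the summed slow fibre markers were 136 to 147 CPM when fed and 169 to 342 CPM when fasted, with 4 of 8 tested markers higher. The summed immediate early genes, which respond to handling and stress, were 514 to 550 CPM when fed and 694 to 1285 CPM when fasted, with 10 of 14 higher in controls and 8 of 14 higher in M-p110βKO. In controls of the p110α line that sum was 608 to 1270 CPM when fed and 623 to 697 CPM when fasted. Fibroblast sums were lower in fasted mice of the p110β line, at 370 to 449 and then 315 to 323 CPM in controls. In M-p110βKO they were 386 to 566 CPM when fed and 163 to 234 CPM when fasted. Macrophage sums there were 34.2 to 58.6 and 22.2 to 24.8 CPM, and in controls 25.8 to 42.1 and 29.3 to 36.2 CPM. The part of these markers in the changes of the members was not tested. Without mouse 25, which had the highest sums, log2 fold changes with fasting in controls were 2.18 for Hspb7 (adjusted p = 2.97e-05), 0.83 for Bag3 (6.86e-05) and 0.72 for Dnajb1 (0.0298). Without mice 23 and 24, where mouse 25 alone is assumed to vary like the other groups, they were 2.93 for Hspb7 (2.36e-05), 0.88 for Bag3 (0.00102) and 1.08 for Dnajb1 (0.0146).

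**Figure D3:**
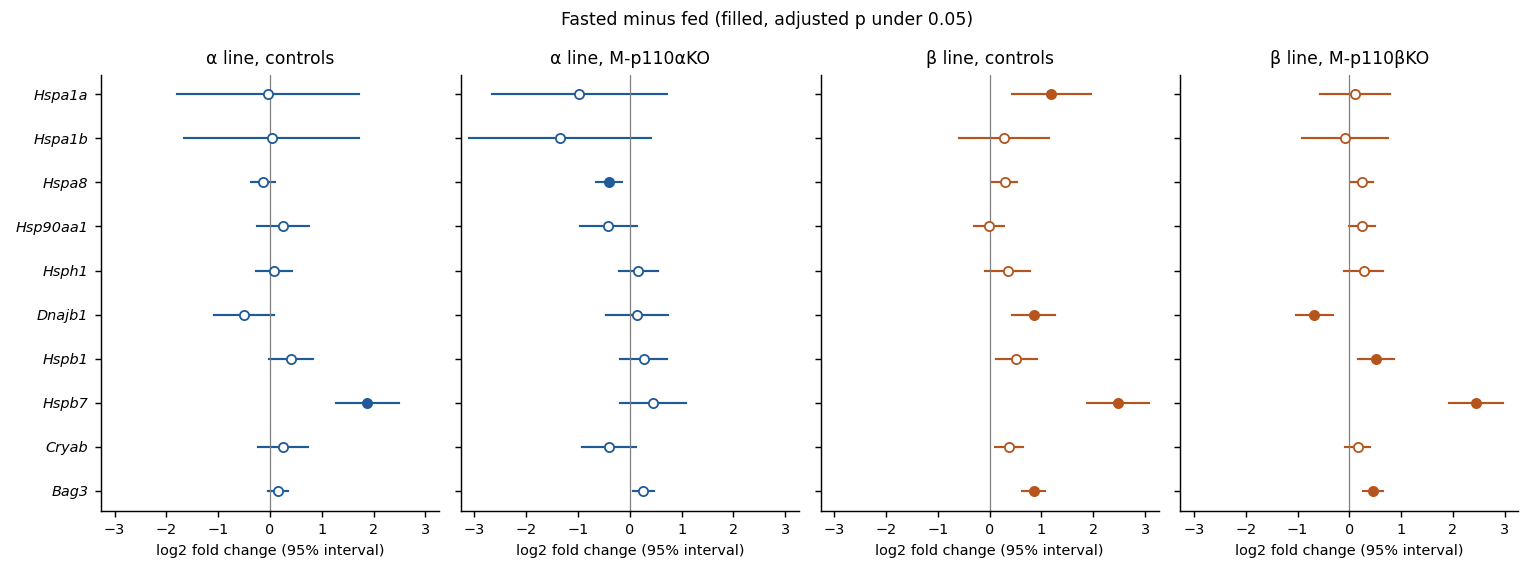
Log2 fold change with fasting for each member, fasted minus fed, with 95% intervals, in controls and knockouts of both lines. Filled points have an adjusted p under 0.05. Hspb7 lies at 1.88, 2.48 and 2.43 in 3 of the 4 panels and at 0.45 in M-p110αKO, and Dnajb1 lies on opposite sides of 0 in the p110β line.

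Loss of p110α was followed by no member past the threshold in either feeding state. In fed mice edgeR called 0 of 10 members, with 0 at an unadjusted p under 0.05 and 0 by DESeq2 and by limma-voom, where 0.611% of all genes were called. The log2 fold change was above 0 for 9 of 10 members, with a median of 0.35 against 0.00 over all genes. Without mouse 5 it was above 0 for 5 of 10, with a median of 0.01. Markers of other cells moved as far in this comparison, though none was called, with a median of 0.60 over 7 adipocyte and over 6 macrophage markers, 0.47 over 4 of blood and 0.39 over 8 of fibroblasts. Their part was not tested. The largest were those of the inducible pair. Hspa1a was at 3.24, 2.28, 1.75 and 0.703 CPM in fed controls and at 18.7, 1.49, 1.46 and 0.623 CPM in fed M-p110αKO. Only mouse 5 lay above the controls, and the log2 fold change of 1.43 ± 0.82 (adjusted p = 0.53) became -0.74 ± 0.57 without it. For Hspa1b, at 12.3 CPM in mouse 5 and 0.623 to 1.40 CPM in the other 3, it went from 1.26 ± 0.79 to -0.70 ± 0.59. Mouse 5 was also the highest of its group for Dnajb1, at 17.1 CPM, for Hsp90aa1, at 130 CPM, and for Hsph1, at 143 CPM. Its immediate early genes summed to 1364 CPM, the highest sum in the study, against 634 to 739 CPM in the rest of its group. Mouse 25, a fasted control of the p110β line, had 1285 CPM and mouse 3, a fed control of the p110α line, 1270 CPM. Their Hspa1a levels were 5.89 and 1.75 CPM. The part of the immediate early genes was not tested. Hspa8 was at 529 to 707 CPM in fed M-p110αKO and 494 to 600 CPM in fed controls (0.24 ± 0.12, adjusted p = 0.435), and the log2 fold change of Hspb7 was 0.60 ± 0.30 (adjusted p = 0.453). With no filter on low counts, under which the standard errors of Hspa1a and Hspb7 were 0.284 and 0.123, edgeR called Hspa1a (adjusted p = 0.000123), Hspb7 (0.000185) and Hspa1b (0.0109).

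In fasted mice of the p110α line edgeR again called 0 of 10 members, where 3.02% of all genes were higher and 3.51% lower in M-p110αKO. DESeq2 and limma-voom also called 0, and 1 member, Hspb7, was lower at an unadjusted p under 0.05. Its fasted levels were 326 to 959 CPM in controls and 241 to 418 CPM in M-p110αKO, with a log2 fold change of -0.83 ± 0.33 (adjusted p = 0.138). Without mouse 10 this was -0.49 (adjusted p = 0.382). The test of the difference itself, the interaction of genotype and fasting, gave -1.43 ± 0.45 for Hspb7 (adjusted p = 0.154), and -1.09 (adjusted p = 0.229) without mouse 10. No member passed that test in edgeR, DESeq2 or limma-voom, where 0.483% of all genes did, and 1 was lower at an unadjusted p under 0.05. The 95% interval of the Hspb7 difference, with no adjustment for the number of genes, ran from -2.31 to -0.55. With no filter on low counts the difference was -1.49 ± 0.18 and passed (adjusted p = 3.34e-13), as it did for Hsp90aa1 (-0.71, adjusted p = 0.0142) and Cryab (-0.70, 0.00985).

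In the p110β line Dnajb1 was the member nearest to the threshold in both states. In fed mice 0 of 10 members were called by edgeR or limma-voom, where 0% of all genes were called by edgeR, and DESeq2 called 1. At an unadjusted p under 0.05, 1 member was higher. That was Dnajb1, at 11.6 to 18.2 CPM in fed M-p110βKO against 7.09 to 10.7 CPM in fed controls, with no overlap, as in 9.75% of all genes. The log2 fold change was 0.88 ± 0.20 (adjusted p = 0.141 in edgeR and 0.0314 in DESeq2), and edgeR called it without mouse 16 (adjusted p = 0.0297). In fasted mice edgeR, DESeq2 and limma-voom called 0 of 10, where edgeR called 0.89% of all genes, and 3 members were lower at an unadjusted p under 0.05. They were Dnajb1 (-0.64 ± 0.19, adjusted p = 0.14), Cryab (-0.36 ± 0.13, adjusted p = 0.227) and Bag3 (-0.30 ± 0.10, adjusted p = 0.195). Each of the 3 was lower in all 4 fasted M-p110βKO than in all 3 fasted controls, as in 10.1% of all genes in either direction. Cryab was at 331, 461, 462 and 411 CPM in fasted M-p110βKO and at 503 to 561 CPM in fasted controls.

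The interaction of M-p110βKO and fasting passed for 1 member, Dnajb1, where 0.106% of all genes passed. The value was -1.52 ± 0.28 on the log2 scale (adjusted p = 0.0407), from 0.85 in controls and -0.68 in M-p110βKO. This call was close to the threshold. It was lost in limma-voom (adjusted p = 0.0639), with upper-quartile factors (0.0501), with the GC and length correction (0.059), in a fit of all 29 libraries (0.128) and without mice 23 and 24 (0.0874). It was also lost without mouse 17, 18, 19, 21, 23, 24, 26, 28 or 29, with adjusted p of 0.163, 0.124, 0.118, 0.111, 0.0825, 0.0857, 0.101, 0.061 and 0.0629. The estimate itself ranged from -1.75 to -1.38 over all omissions of 1 mouse. The other 9 members did not pass, Hspa1a with -1.08 ± 0.52 (adjusted p = 0.392) and Bag3 with -0.39 ± 0.15 (adjusted p = 0.296) being the nearest.

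**Figure D4:**
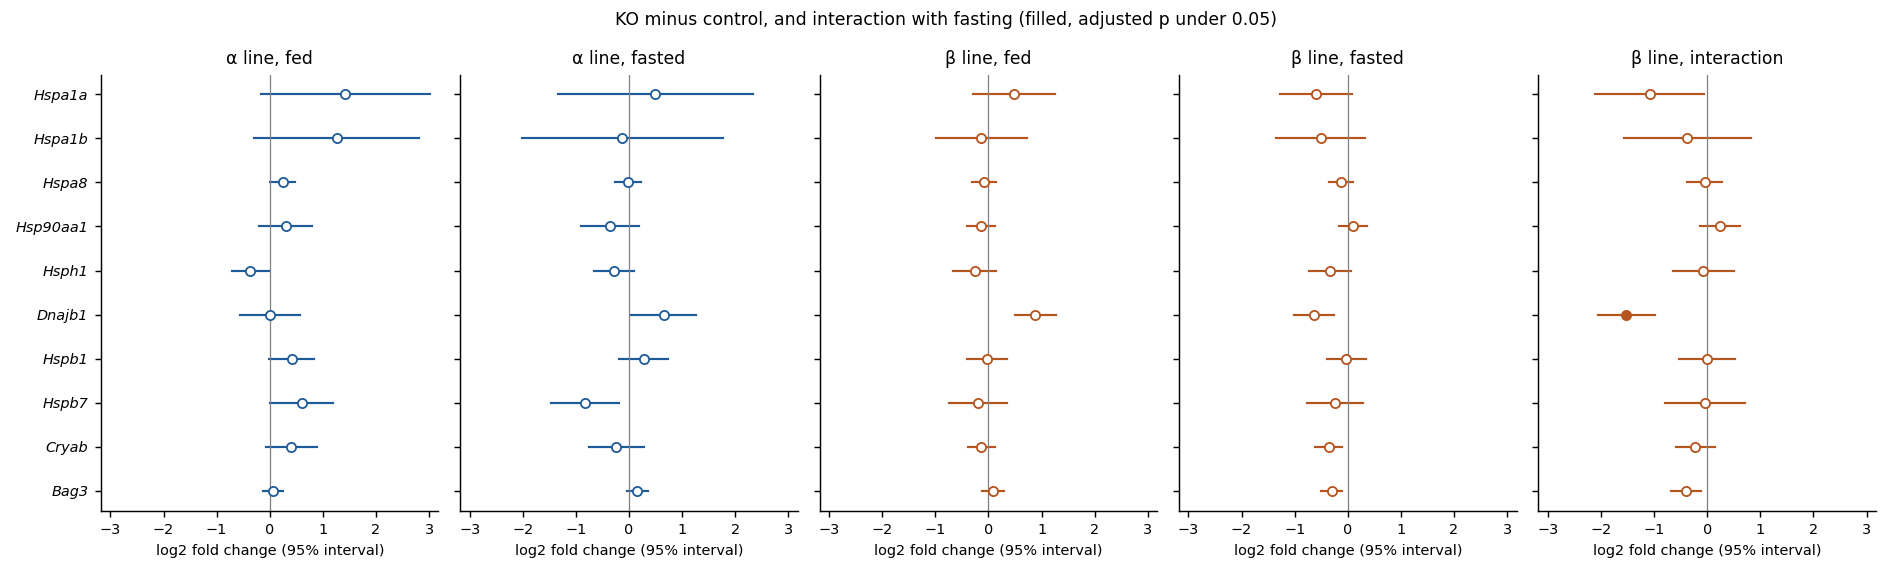
Log2 fold change of each member, knockout minus control, in fed and fasted mice of both lines, and the interaction of genotype and fasting in the p110β line, with 95% intervals. The filled point, Dnajb1 at -1.52 in the interaction, is the only one with an adjusted p under 0.05, and intervals of Hspa1a and Hspa1b are the widest in the p110α line.

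Between the lines, fed controls differed in Cryab and Hspb1. Fed controls of the p110β line had 2 of 10 members higher than fed controls of the p110α line, where 9.33% of all genes were higher, and 0 lower, where 10.9% of all genes were lower. Hspb7 was lower at an unadjusted p under 0.05 in edgeR, and DESeq2 and limma-voom called 2 members in either direction. Cryab was at 331, 457 and 453 CPM in the p110β line against 186, 201, 179 and 216 CPM in the p110α line, and all 14 mice of the p110β line, at 331 CPM or more, lay above all 15 mice of the p110α line except mouse 10. The log2 difference was 1.08 ± 0.22 (2.11-fold, adjusted p = 0.00122). Hspb1 was at 33.6, 47.3 and 55.0 CPM in the p110β line and 22.6, 24.5, 21.4 and 31.9 CPM in the p110α line, a difference of 0.84 ± 0.23 (1.79-fold, adjusted p = 0.0112) that was lost without mouse 18 (0.0908) and with the GC and length correction (0.108). Groups did not overlap for these 2 genes, as in 29% of all genes. Hspb7 went the other way, at 72.1 to 108 CPM against 99.4 to 213 CPM (-0.82 ± 0.34, adjusted p = 0.0854). The effect of the knockout over both states differed between lines for 0 of 10 members in edgeR, DESeq2 and limma-voom, where 0.839% of all genes did, with 1 at an unadjusted p under 0.05.

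The rest of the chaperone system was taken from 11 lists of 126 genes, of which 122 were tested. With fasting 15 (12.3%) rose and 27 (22.1%) fell in controls of the p110α line, where 15.4% of all genes rose and 14.7% fell. In M-p110αKO 7 (5.74%) rose and 22 (18%) fell, against 11.6% and 9.91% of all genes. In controls of the p110β line 25 (20.5%) rose and 12 (9.84%) fell, against 14.5% and 12.4%, and the 37 calls became 15 without mice 23 and 24. In M-p110βKO 28 (23%) rose and 26 (21.3%) fell, against 19% and 18.9%. Over these 4 comparisons, which share no mouse, 4 of the 122 genes rose in all and 7 fell in all. How many of all genes did so was not counted, so these counts are not a result about chaperones. Those that rose were Clpx, a mitochondrial protease chaperone, Dnajb9, an ER J-domain protein, Sqstm1, the autophagy receptor p62, and Sugt1, an HSP90 cochaperone. Those that fell were Hspb2, Hspb3, Dnajb5, Dnajb14, Mrpl18, Pfdn1 and Serpinh1, the collagen chaperone. Both lists were read off after the values were seen. Hspb3, a small heat shock protein of muscle, had log2 fold changes of -1.32 ± 0.23, -1.06 ± 0.25, -1.28 ± 0.22 and -1.11 ± 0.19, and Hspb2, which neighbours Cryab, lay between -0.95 and -0.88. Hspb7 thus rose where Hspb2 and Hspb3 fell in 3 of the 4 comparisons, while in M-p110αKO Hspb7 did not pass. Flnc, the filamin C that BAG3 helps to clear, rose by 1.11 ± 0.24 in controls of the p110α line (adjusted p = 0.00234), 2.12 ± 0.16 in controls of the p110β line (6.44e-08) and 1.33 ± 0.14 in M-p110βKO (1.12e-06). It was not among the genes that rose in M-p110αKO. That is no test of a difference between genotypes, and of the 122 genes only Dnajc21 passed the interaction of M-p110αKO and fasting.

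Among the transcription factors, Hsf2 rose with fasting in controls of the p110α line (0.73 ± 0.16, adjusted p = 0.00203), in controls of the p110β line (0.50 ± 0.15, 0.018) and in M-p110βKO (0.67 ± 0.13, 0.000525), and had 0.37 ± 0.17 in M-p110αKO (0.127). Hsf1, the main factor of the heat shock response, had log2 fold changes between -0.28 and -0.03 with fasting and passed in none. Fkbp5, an HSP90 cochaperone and glucocorticoid target, rose by 1.88 ± 0.34 in controls of the p110β line and by 3.07 ± 0.31 in M-p110βKO. It was not among the genes that rose in all 4 comparisons. Of the 122 genes only Hspa5 passed the test of a different fasting change in controls of the lines. Of the 24 other genes of the inducible heat shock list, 4 rose and 6 fell in controls of the p110α line, 1 and 6 in M-p110αKO, 5 and 3 in controls of the p110β line, and 7 and 7 in M-p110βKO. Both directions were present in each of the 4. The HSP90 list, 1 of the 11 lists, had 1 gene higher and 7 lower in controls of the p110α line. In controls of the p110β line it had 4 higher and 1 lower.

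By genotype, the share of these genes called was near that of all genes. In fed mice edgeR, DESeq2 and limma-voom called 0 of 122 in either line, with 8 at an unadjusted p under 0.05 in the p110α line, all higher, and 5 in the p110β line. In fasted M-p110αKO 4 were higher and 4 lower (3.28% each, against 3.02% and 3.51% of all genes). DESeq2 called 16 there, and its share of all genes was not counted. In edgeR 1 was called without mouse 14, 4 without mouse 12 and 5 without mouse 1, 9, 10, 11 or 13. With all mice, the edgeR calls included Hspbp1 (0.79 ± 0.16, adjusted p = 0.00967) and Sil1 (0.58 ± 0.12, 0.0104), which exchange nucleotide on HSP70 proteins. Stub1, the CHIP ubiquitin ligase (0.82 ± 0.24, 0.0467), and Dnajc21 (-0.63 ± 0.12, 0.00606) were also among them. Dnajc21 also passed the interaction test (-0.80 ± 0.16, adjusted p = 0.0379), as the only one of 122, but not without mouse 1, 2, 5, 6, 9, 10, 11, 12, 13 or 14. In fasted M-p110βKO Flnc was lower (-0.64 ± 0.15, adjusted p = 0.0441), the only call of 122, which was lost without mouse 17, 19, 20, 21, 22, 23, 24, 26 or 29. Stub1 fell by 1.01 ± 0.22 with fasting in controls of the p110α line (adjusted p = 0.00208). Between lines the fasting change of controls differed for Hspa5, the ER HSP70 BiP, by 0.68 ± 0.17 (adjusted p = 0.0322), larger in the p110β line, a call that was lost without mouse 2, 12, 16, 23 or 24. Fed controls of the p110β line had 14 of the 122 higher and 17 lower than those of the p110α line, 31 calls that became 16 without mouse 3 and 13 without mouse 16. Among those higher were Hsf4 (0.64 ± 0.18, adjusted p = 0.013), Hspb2 (0.74 ± 0.19, 0.00688) and Hsf1 (0.34 ± 0.12, 0.0391). The interaction of M-p110βKO and fasting passed for 0 of 122 in edgeR, DESeq2 and limma-voom, with 11 at an unadjusted p under 0.05, and so did the difference of the knockout effect between lines, with 13.

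**Figure D5:**
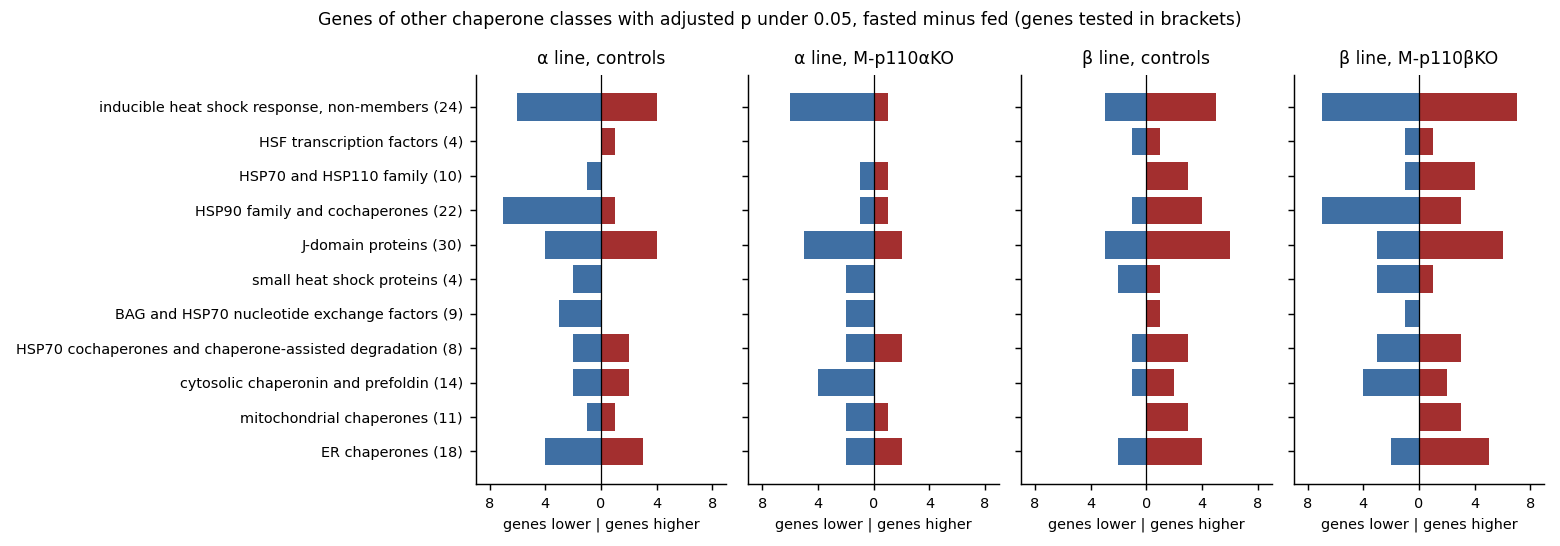
Number of genes of 11 other chaperone lists with an adjusted p under 0.05 with fasting, lower to the left in blue and higher to the right in red, in controls and knockouts of both lines, with the number tested in brackets. The HSP90 list has 7 genes lower and 1 higher in controls of the p110α line and 1 lower and 4 higher in controls of the p110β line. Of all genes, 14.7% were lower and 15.4% higher in the former, and 12.4% lower and 14.5% higher in the latter.

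Within groups some of the members varied together over the 29 libraries. These correlations are descriptions over libraries that share groups, depth and handling. After subtraction of group means the log2 CPM of Hspa1a had r = 0.83 with Hspa1b, 0.79 with Dnajb1 and 0.69 with Hsp90aa1, and Hspa1b had 0.75 with Dnajb1. Without mouse 5, which was high for these genes, the 4 values were 0.64, 0.67, 0.56 and 0.60. Hspa8 had r = 0.77 with Hsph1, its exchange factor, and Hspb7 had 0.65 with Cryab, though without that subtraction the latter pair had r = 0.03. Hspb1 and Cryab had r = 0.79 over all libraries and 0.59 within groups, and Hspb1 and Hspb7 had 0.54 within groups. Without mouse 5 the within-group r was 0.60 for Hspb1 with Cryab, 0.55 for Hspb1 with Hspb7, 0.65 for Hspb7 with Cryab and 0.76 for Hspa8 with Hsph1. The genes most like Hspb7 were Ankrd2 (r = 0.94) and Csrp3 (0.94), stretch-responsive proteins of the sarcomere, and Cped1 (0.92), with within-group values of 0.71, 0.63 and 0.57. Those most like Bag3 were Flcn and Srxn1 (both 0.89) and Ptp4a3 (0.87), with within-group values of 0.34, 0.31 and 0.42. For Cryab they were the ribosomal genes Rps3a1 (0.84) and Rplp1 (0.83) and the locus Gm11868 (0.83), at 0.14 to 0.29 within groups, and for Hspb1 they were Psmb4 (0.83), Pex6 and Slc25a28 (both 0.81). Dnajb1 was most like Klf2 (0.76), Itpkb (0.75) and Fmnl3 (0.70), and Hspa1b most like Atf3 (0.65), Cavin1 (0.64) and Nrp2 (0.63). For the other 4 members the highest r was between 0.66 and 0.79.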

How the data were processed

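TA muscle RNA of 29 mice was sequenced from NEBNext mRNA libraries. The authors made the deposited whole-number counts per gene. The submitters' processing notes name STAR, featureCounts of Subread and build GRCm38, with versions, settings, strand and the handling of multi-mapped reads not given in the sources used here. Symbols were matched by Ensembl identifier to GENCODE on GRCm38 for 47310 of 48023 genes, and the other 713 held 0.0292% of reads. Promoters are from RefSeq on GRCm38.p6, for 7 of the 10 members.

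Counts were tested in R 4.3.3 with edgeR 4.0.16, with filterByExpr (minimum count 10, minimum total 15), TMM factors and quasi-likelihood F tests, at a Benjamini-Hochberg adjusted p of 0.05 over all genes tested. Each line was fitted alone, with its 4 groups sharing 1 estimate of spread, and comparisons between lines used all 29 libraries and 12760 genes. Errors are SE, and 95% intervals are 1.96 SE. Log2 CPM used a prior count of 2. Depth limits precision for Hspa1a and Hspa1b, at 3 to 149 reads per library. Alternatives were DESeq2 1.42.0, limma-voom (limma 3.58.1), other factors, filters and fits, and each library left out. A correction for GC content and length, and leaving out mice 23 and 24, were chosen after seeing the data. The 39 pairs of libraries within groups were checked for copies, and the scripts were tested on simulated data.

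The members and gene lists were chosen with earlier results of these data known. Beside the members, up to 6 called chaperone genes per comparison with the largest change and a mean log2 CPM of at least 1 were named, with Hsf1, Hsf2 and Hsf4 and the 3 genes most like each member.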

Additional observations from a re-analysis of the deposited data

Results flagged for a closer look

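In 6 of 50 groups of 4 libraries tested, over the 10 members, 1 library stood farther from the others than Dixon's critical value allows. Chance gives this in about 1 in 20 groups. Of the 6, 3 concern mouse 5, a fed M-p110αKO. It had 18.7 CPM of Hspa1a against 0.623 to 1.49 in the other 3, 12.3 CPM of Hspa1b against 0.623 to 1.40, and 17.1 CPM of Dnajb1 against 7.09 to 8.10. Mouse 8 of that group had the low value of 529 CPM of Hspa8 against 688 to 707 in the others. Hspa1b was at 2.37 CPM in mouse 10, a fasted control of the p110α line, against 1.14 to 1.33, and at 3.17 CPM in mouse 28, a fasted M-p110βKO, against 0.789 to 1.11.

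Effects of fasting that differed between groups by the test of the difference were those of Dnajb1 between M-p110βKO and its controls (-1.52 on the log2 scale, edgeR adjusted p = 0.0407), of Bag3 between controls of the 2 lines (0.67, 0.015), of Dnajc21 between M-p110αKO and its controls (-0.80, 0.0379) and of Hspa5 between controls of the lines (0.68, 0.0322). Each call was lost when 1 or more of the mice were left out singly.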

How the results depend on the processing

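No paired analysis was possible because the mice carry the numbers 1 to 29 without repeats, so that groups share none. Over the values of the members, no direction reversed past a threshold. The values of the named chaperone genes were not part of this check. Under all settings other than leaving out 1 mouse, 1253 of the member values kept their side of the threshold. A further 34 came past it and 13 fell short of it. With 1 mouse left out these counts were 2283, 13 and 24. Other scalings moved the median of all genes by less than 0.1.

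With no filter beyond 1 read, the number of members called became 3 in fed and 1 in fasted M-p110αKO against controls, 2 with fasting in controls and 6 in M-p110αKO of that line, 3 in its interaction, 1 in fed and 1 in fasted M-p110βKO, and 2 in the difference of fasting between lines. The cause was not tested. Among the 122 other chaperone genes it became 13 in fasted and 2 in fed M-p110αKO, 8 in the p110α interaction, 2 in fed and 2 in fasted M-p110βKO, 3 in the p110β interaction, 6 in the fasting difference between lines and 2 in the knockout difference. DESeq2 gave 1 member in fed M-p110βKO and 2 in the fasting difference between lines, and 16 chaperone genes in fasted M-p110αKO, 4 in the p110α interaction, 2 in fasted M-p110βKO and 8 in the fasting difference between lines. The share of all genes that DESeq2 called in these comparisons was not counted. The GC and length correction gave 3 members with fasting in controls of the p110α line, 0 in the p110β interaction and 0 in the fasting difference between lines, and 0 chaperone genes in the p110α interaction and in fasted M-p110βKO. The p110β interaction also had 0 members with upper-quartile factors, limma-voom, all 29 libraries in 1 fit, and without mice 23 and 24. Fits of 2 groups alone gave 0 members with fasting in M-p110αKO and 0 chaperone genes in fasted M-p110βKO. Limma-voom gave 5 chaperone genes in fasted M-p110αKO. The fit of all libraries gave 13 there, 3 in the p110α interaction and 0 in fasted M-p110βKO. Without mice 23 and 24 there were 0 in fasted M-p110βKO, 15 with fasting in controls of the p110β line, and 0 of both members and chaperone genes in the fasting difference between lines. That difference had 2 chaperone genes with DESeq2 size factors, with a filter of 1 CPM in 3 libraries, and without mitochondrial and the top 20 genes.

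With each mouse left out in turn, members called ranged from 0 to 1 with fasting in M-p110αKO, 0 to 1 in fed M-p110βKO, 3 to 6 with fasting in controls of the p110β line and 3 to 4 in M-p110βKO, 0 to 1 in its interaction, 1 to 3 between lines and 0 to 2 in the fasting difference. The count was 1 throughout with fasting in controls of the p110α line and 0 throughout in M-p110αKO against controls in both states, its interaction, fasted M-p110βKO and the knockout difference. Chaperone genes called ranged from 1 to 11 in fasted M-p110αKO, 33 to 43 with fasting in controls of that line, 21 to 33 in M-p110αKO, 0 to 2 in its interaction, 0 to 1 in fed and 0 to 3 in fasted M-p110βKO, 28 to 39 with fasting in controls of the p110β line, 42 to 57 in M-p110βKO, 0 to 1 in its interaction, 13 to 32 between lines, 0 to 5 in the fasting difference and 0 to 1 in the knockout difference. In fed M-p110αKO it was 0 throughout.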
